A study of Mus musculus with 10 samples.

Results

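The 6 actin genes and the 3 genes of the cofilin family were followed in C2C12 cells, a mouse myoblast line that fuses into myotubes when serum is withdrawn, after knockdown of *Fndc1*. The members were the skeletal and cardiac α-actins (*Acta1*, *Actc1*), the smooth muscle α- and γ-actins (*Acta2*, *Actg2*), the cytoplasmic β- and γ-actins (*Actb*, *Actg1*), cofilin-1 (*Cfl1*), cofilin-2 (*Cfl2*) and destrin (*Dstn*). They were picked by symbol, for the switch between actin isoforms in myogenesis and for the measured rise of *Cfl2* between the same groups of libraries that are compared here. Because they were chosen on this contrast, their differences between the groups, and whether the fit across all genes placed them past its threshold, are given as a description and support nothing. All 9 were found among the 55359 genes of the deposited table, and all 9 were among the 13548 genes that passed the minimum level, a mean of 0.5 FPKM (the count scaled by transcript length and library size) over the 10 libraries.

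Actin is the subunit of the thin filaments of the sarcomere and of the cytoskeleton, and its isoforms differ mainly at the amino terminus. During myogenesis the cytoplasmic isoforms give way to the sarcomeric ones, and cofilin-2 is the muscle form of the cofilins, which bind, sever and depolymerize filaments until LIM and TESK kinases inactivate them by phosphorylation. Actin genes are also controlled by their own product, because actin monomers hold back the cofactors of serum response factor (SRF), which binds CArG boxes.

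Cells were transfected with 100 nM of an siRNA against *Fndc1* (si-*Fndc1*, 5 libraries) or of a control siRNA (si-Control, 5 libraries). By the sample labels both groups were taken after 4 days of differentiation in 2% horse serum, whereas the series' own text places the harvest at 48 h after transfection. All libraries came from 1 cell line and no label says that they were separate cultures, so standard errors and p-values measure the spread between libraries, which may be technical. The targeted gene had 24.7 to 29.6 FPKM in si-Control and 18.7 to 23.5 FPKM in si-*Fndc1*, without overlap and with a ratio of the means of 0.752.

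Total counts were 66771605 to 75995168 per si-Control library and 56332844 to 72839369 per si-*Fndc1* library, of which the members took 0.924% to 0.958% and 0.949% to 1.02%. The lowest count of any member in any library was 3412 (*Actg2*), so counting error was small beside the spread of the libraries. All 12 skeletal muscle markers were above the minimum level, with a summed level of 2390 to 2640 FPKM in si-Control and 2220 to 2560 FPKM in si-*Fndc1*, whereas of the 9 cardiac markers 2 passed the minimum level and *Myl7* and *Hand2* were listed at 0 in all libraries. Of the 8 smooth muscle markers 6 passed it, of which 1 was higher and 3 were lower (summed level 179 to 195 FPKM against 171 to 182 FPKM). *Tagln* (141 and 132 FPKM) held most of that sum, and *Myh11*, the smooth muscle myosin, averaged 0.0128 and 0.00844 FPKM. Hepatocyte markers differed between the groups: 19 of 19 tested were higher in si-*Fndc1*, and they summed to 1.2 to 9.02 FPKM in si-Control and to 66.1 to 221 FPKM after knockdown. Of 5 tested fibroblast markers 1 was higher and 3 were lower (summed level 935 to 1030 FPKM against 719 to 750 FPKM). The part of these cell types' transcripts in the members' differences was not tested. In bulk RNA, fewer cells of a type and less RNA per cell cannot be told apart.

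The sarcomeric and smooth muscle α-actins were the most abundant members. In si-Control, FPKM fell in the order *Acta1* (1898 ± 90.8, SD, n = 5), *Acta2* (1024 ± 24.3), *Actc1* (507.1 ± 31.4), *Actb* (313.3 ± 21.4), *Actg1* (299.7 ± 23.9), *Cfl1* (167.2 ± 10.3), *Dstn* (100.8 ± 5.92), *Cfl2* (34.5 ± 1.13) and *Actg2* (33.6 ± 2.03). Neighbors in this order did not overlap between libraries, except *Actb* with *Actg1* and *Cfl2* with *Actg2*. The place of *Cfl1* depended on transcript length: the length implied by the deposited counts and FPKM was 3162 bases against 1148 bases for its annotated transcript, and with annotated lengths it moved from place 6 to place 5, above *Actg1*.

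Together the 2 sarcomeric isoforms made up 58.98% ± 1.97 (SD, n = 5) of the summed actin FPKM in si-Control and 58.6% ± 2.1 in si-*Fndc1*. The smooth muscle isoforms held 25.97% ± 1.01 and 25.4% ± 1.34, and the cytoplasmic isoforms 15.05% ± 1.06 and 15.96% ± 0.796. These shares depend on the scale. The cytoplasmic share was 17.9% and 18.9% with annotated transcript lengths and 23.9% and 24.7% in read counts with processed copies added. The sarcomeric share was 54.5% and 54.1% with annotated transcript lengths and 47.1% and 46.9% in read counts with processed copies added. All 3 classes overlapped between the groups, and so did the summed actin level (4021 to 4223 FPKM in si-Control, 3998 to 4473 FPKM in si-*Fndc1*). The larger differences lay within the cytoplasmic actins and within the cofilin family.

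**Figure D1:**
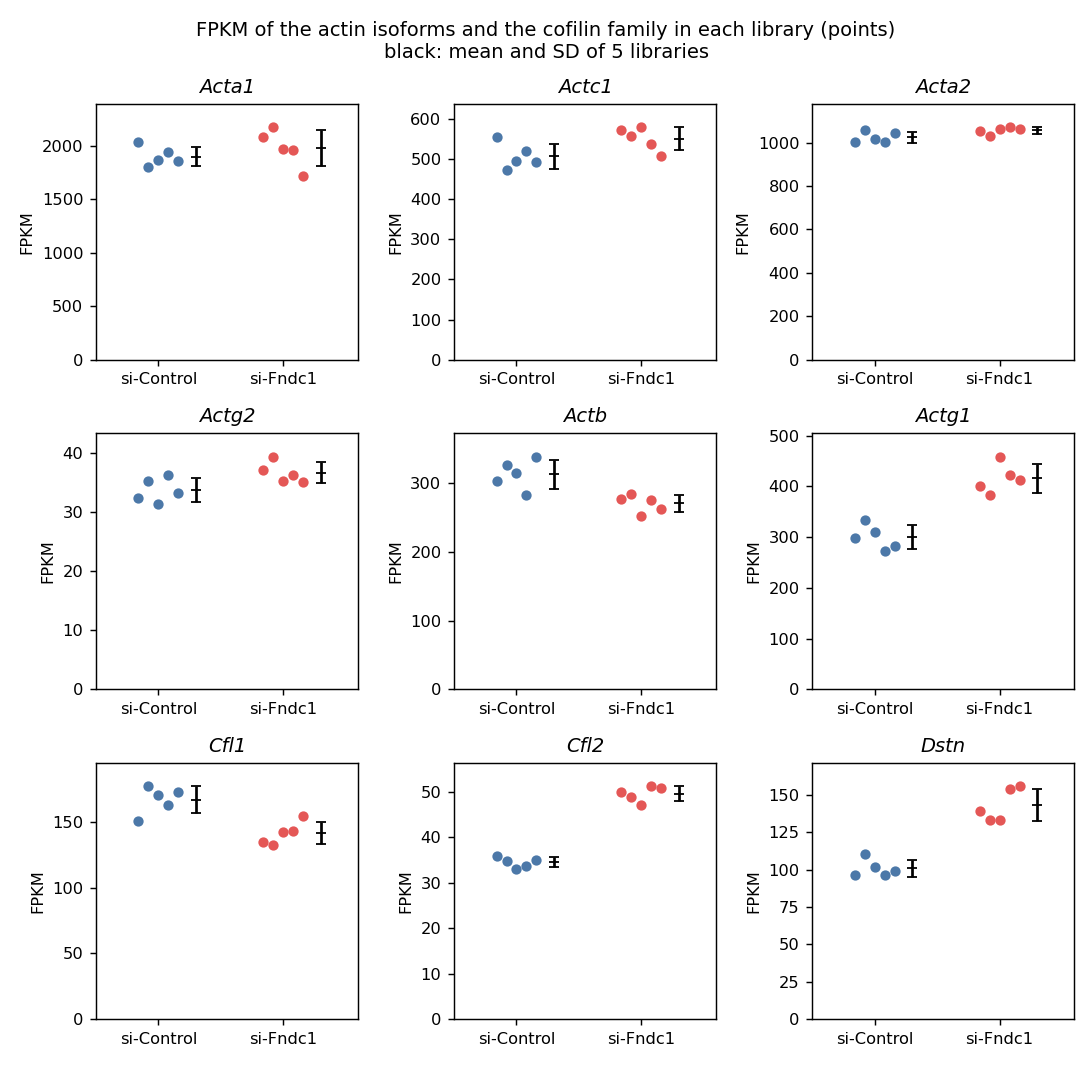
FPKM (y axis, from 0) of each of the 9 members in the 5 si-Control (blue) and 5 si-Fndc1 (red) libraries, with the mean and SD of each group in black. Actg1, Cfl2 and Dstn are higher in every si-Fndc1 library than in any si-Control library, and the groups overlap for the other 6 members.

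The stretch from 250 bases before to 50 bases after the start of the gene was taken from RefSeq (build GRCm38.p6) for 7 of the 9 members. *Actb* and *Actg2* were not matched. Shown are the promoters of the sarcomeric actins *Acta1* (chr8:123894726-123895025, minus strand) and *Actc1* (chr2:114052826-114053125, minus strand), and of the 3 members without overlap between the groups, *Actg1* (chr11:120348446-120348745, minus strand), *Cfl2* (chr12:54862828-54863127, minus strand) and *Dstn* (chr2:143915081-143915380, plus strand). They are written 5′ to 3′ on the strand of the gene. Capitals mark matches on either strand to the CArG box, to TATAAA and to the MCAT element CATTCC (bound by TEAD factors). They also mark the E-box CANNTG, some forms of which are bound by myogenic factors such as MyoD.
Acta1: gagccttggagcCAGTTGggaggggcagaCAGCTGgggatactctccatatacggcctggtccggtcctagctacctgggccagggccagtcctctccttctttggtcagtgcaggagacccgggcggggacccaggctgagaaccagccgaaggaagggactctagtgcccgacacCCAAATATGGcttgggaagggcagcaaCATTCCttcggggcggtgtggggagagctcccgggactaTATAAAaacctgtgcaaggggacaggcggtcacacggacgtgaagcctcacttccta
Actc1: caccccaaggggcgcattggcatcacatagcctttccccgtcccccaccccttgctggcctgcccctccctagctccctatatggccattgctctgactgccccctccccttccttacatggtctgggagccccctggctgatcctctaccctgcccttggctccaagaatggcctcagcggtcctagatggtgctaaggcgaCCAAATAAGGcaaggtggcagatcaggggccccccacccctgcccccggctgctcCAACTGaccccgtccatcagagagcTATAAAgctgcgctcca
Actg1: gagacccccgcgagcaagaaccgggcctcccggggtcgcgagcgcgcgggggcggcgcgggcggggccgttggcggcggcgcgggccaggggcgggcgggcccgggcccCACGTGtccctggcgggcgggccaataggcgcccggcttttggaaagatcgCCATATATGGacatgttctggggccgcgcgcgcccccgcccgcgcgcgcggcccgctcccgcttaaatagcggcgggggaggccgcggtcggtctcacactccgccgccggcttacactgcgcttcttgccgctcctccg
Cfl2: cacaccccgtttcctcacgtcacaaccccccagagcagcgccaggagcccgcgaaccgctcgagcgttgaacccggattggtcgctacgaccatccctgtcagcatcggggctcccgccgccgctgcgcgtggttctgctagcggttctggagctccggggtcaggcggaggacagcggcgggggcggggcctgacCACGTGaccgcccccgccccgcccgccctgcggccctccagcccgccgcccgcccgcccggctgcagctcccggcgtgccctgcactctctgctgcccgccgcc
Dstn: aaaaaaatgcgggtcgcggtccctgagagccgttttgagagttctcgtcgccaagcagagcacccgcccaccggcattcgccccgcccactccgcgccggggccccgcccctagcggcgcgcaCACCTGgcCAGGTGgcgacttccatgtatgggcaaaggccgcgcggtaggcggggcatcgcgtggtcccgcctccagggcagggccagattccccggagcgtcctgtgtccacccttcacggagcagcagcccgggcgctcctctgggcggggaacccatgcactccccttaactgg

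A CArG box of this strict form, which 1.63% of the 32851 promoters in the table hold, was present in 3 of the 7 members: *Acta1*, *Actc1* and *Actg1*. Its first base lay 73 bases before the start in *Acta1*, 47 in *Actc1* and 90 in *Actg1*. Near matches such as CCCTATATGG and CCTTGTTTGG, both in the *Acta2* window, were not counted. The E-box was found in 6 of the 7 members against 72.3% of all promoters, MCAT in 2 (*Acta1* and *Acta2*) against 14.7%, and TATAAA in 2 (*Acta1* and *Actc1*) against 13.6%. In *Actc1* both the E-box and TATAAA lay after the start that the table gives. The forms of the E-box were not counted apart. The E-box of *Actg1* and that of *Cfl2* had the same middle bases, which no E-box of the other members searched had. Whether any of these forms is one that MyoD binds was not tested. *Actg1* shared the CArG box with the sarcomeric actins but differed from them in GC content (77.3% against 61.0% in *Acta1* and 62.7% in *Actc1*), closer to *Cfl2* (75.3%). No match to these motifs overlapped another, and *Cfl1* held none of them in this window. A match is a match of letters and no evidence of binding.

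Among the sarcomeric actins, *Acta1* (chr8:124618508-124621490 in the coordinates of the deposited table, which names no build) measured 2033, 1796, 1863, 1940 and 1859 FPKM in si-Control replicates 1 to 5 and 2078, 2175, 1968, 1956 and 1716 FPKM in si-*Fndc1* replicates 1 to 5. The highest and the lowest of the 10 values were both in si-*Fndc1*, and the log2 fold change (si-*Fndc1* over si-Control, edgeR) was 0.07 (SE 0.06). *Actc1* (chr2:113877763-113884029), the cardiac isoform that embryonic skeletal muscle also uses, measured 554.6, 474.0, 494.2, 520.7 and 492.0 FPKM in si-Control and 572.7, 558.4, 579.2, 537.8 and 507.0 FPKM in si-*Fndc1*. Of these, 3 si-*Fndc1* libraries were above all si-Control libraries, and the log2 fold change was 0.13 (SE 0.05). The ratio of *Acta1* to *Actc1* was 3.746 ± 0.0515 in si-Control and 3.588 ± 0.21 in si-*Fndc1*, with overlap.

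The smooth muscle actins differed by less than the cytoplasmic ones. *Acta2* (chr19:34218490-34232990), which also marks myofibroblasts and immature muscle cells, ranged from 1001 to 1056 FPKM (median 1018) in si-Control and from 1031 to 1072 FPKM (median 1062) in si-*Fndc1*, with a log2 fold change of 0.05 (SE 0.03). *Actg2* (chr6:83489887-83513247), the enteric isoform, ranged from 31.4 to 36.3 FPKM and from 35.1 to 39.3 FPKM, with a log2 fold change of 0.13 (SE 0.05). Both groups overlapped for both genes. After the correction for transcript GC content and length that is described further on, *Acta2* turned to -0.10 (SE 0.02).

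The 2 cytoplasmic actins differed in opposite directions. *Actb* (chr5:142888870-142892509) measured 303.8, 326.0, 314.5, 283.0 and 339.0 FPKM in si-Control and 277.7, 285.0, 253.1, 275.4 and 263.3 FPKM in si-*Fndc1*. All but 1 of the si-*Fndc1* libraries lay below every si-Control library, and the exception, replicate 2, was above si-Control replicate 4 alone. Its log2 fold change was -0.20 (SE 0.05), and -0.11 with the GC and length correction, under which it was no longer called. *Actg1* (chr11:120236516-120239368) measured 298.7, 333.8, 310.8, 273.5 and 282.0 FPKM in si-Control and 400.9, 383.8, 459.0, 422.2 and 413.7 FPKM in si-*Fndc1*. The groups did not overlap, and the log2 fold change was 0.48 (SE 0.06).

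Taken within each library, where depth cancels, the ratio of *Actg1* to *Actb* was 0.983, 1.02, 0.988, 0.967 and 0.832 in si-Control and 1.44, 1.35, 1.81, 1.53 and 1.57 in si-*Fndc1*. On this scale *Actg1* was at about the level of *Actb* in the control libraries and above it in all 5 knockdown libraries. In read counts with the processed copies of *Actg1* added, the mean ratio was 1.262 in si-Control and 1.854 in si-*Fndc1*, so that *Actg1* was above *Actb* in both groups. *Actg1* made up 7.36% ± 0.638 of summed actin FPKM in si-Control and 9.67% ± 0.833 in si-*Fndc1*, *Actb* 7.69% ± 0.595 and 6.29% ± 0.291, and neither share overlapped between the groups.

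**Figure D2:**
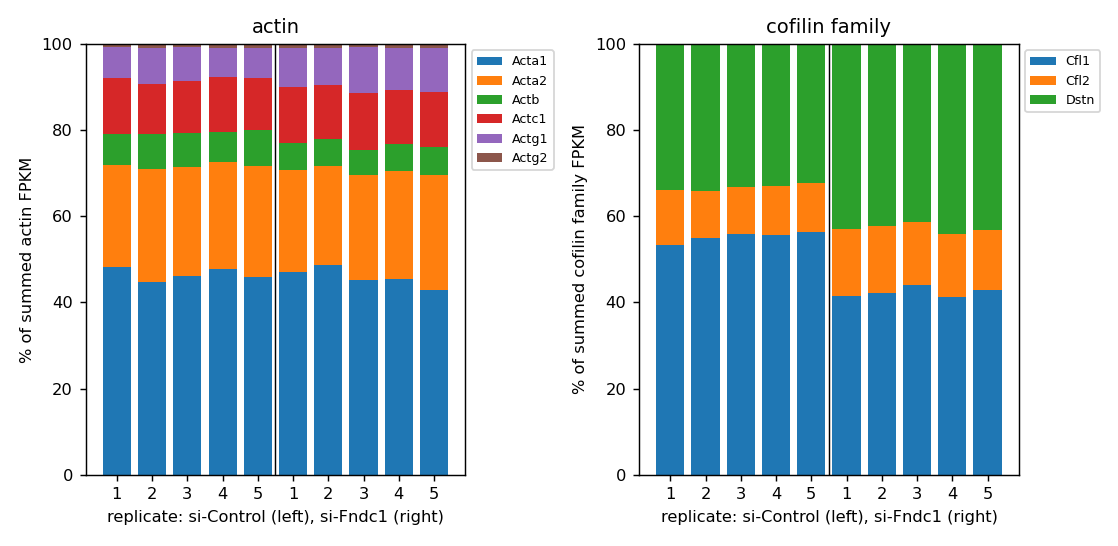
Share (%, y axis) of each isoform in the summed FPKM of the actins (left) and of the cofilin family (right) in each library, si-Control replicates 1 to 5 left of the line and si-Fndc1 replicates 1 to 5 right of it. Acta1 is the largest actin share in all 10 libraries (42.9% to 48.6%), and the Cfl1 share runs from 53.4% to 56.4% left of the line and from 41.2% to 44.2% right of it.

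*Actg1* reads could also be assigned elsewhere, because processed copies of its transcript lie in the genome. In the mouse build NCBIM37, 7 loci outside the gene matched its transcript at 95% identity or more over at least 100 bases. The longest match covered 97.6% of the transcript, and 4 genes of the deposited table lie at these loci. The processed pseudogene *Gm12715* had 23.7% as many reads as *Actg1* over all libraries, *Gm8399* 1.96% and *Actg-ps1* 0.553%. *Gm12715* had 20029, 17138, 19237, 18540 and 20159 counts in si-Control and 19820, 20417, 1618, 22250 and 15931 counts in si-*Fndc1*. Replicate 3 of si-*Fndc1* thus stood apart at 18.3 FPKM, against 222.7 to 246.9 FPKM in the other 4, and the same library had the highest *Actg1* count of all, 95739.

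With the copies added, *Actg1* reached 1084 to 1250 CPM (the count scaled to library size) in si-Control, with a mean of 1174 ± 62.1 (SD, n = 5), and 1411 to 1586 CPM after knockdown, with a mean of 1496 ± 68.7. Replicate 3 of si-*Fndc1* was then the lowest of its group, the groups still did not overlap, and the log2 fold change was 0.35 in place of 0.48. Without that library the log2 fold change of *Actg1* alone was 0.44. How the reads were divided between the gene and its copies is not given in the sources used here, so the size of the *Actg1* difference is uncertain in this range.

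**Figure D3:**
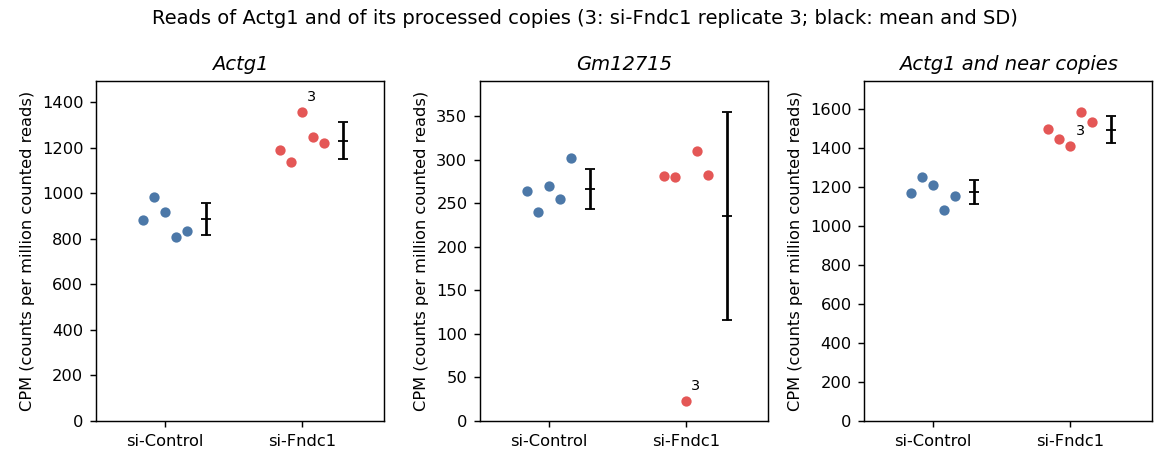
CPM (counts scaled to library size, y axis, from 0) of Actg1 (left), its processed pseudogene Gm12715 (middle), and Actg1 with all its near copies (right) in each library, with the mean and SD of the 5 libraries of a group in black. The point marked 3 is si-Fndc1 replicate 3, low for Gm12715 and highest for Actg1 alone, and the groups do not overlap with the copies added.

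*Cfl1* (chr19:5540483-5545229), the cofilin of non-muscle cells, measured 151.4, 177.7, 170.8, 163.0 and 173.0 FPKM in si-Control and 134.8, 133.1, 142.8, 143.8 and 154.7 FPKM in si-*Fndc1*. In si-*Fndc1*, 4 of the 5 libraries lay below every si-Control library, replicate 5 lay above si-Control replicate 1, and the log2 fold change was -0.23 (SE 0.05). Its processed pseudogene *Gm6180*, which matches 96.5% of the transcript, had 1.68% as many reads, 15.2 to 19.9 FPKM in si-Control and 9.13 to 12.2 FPKM in si-*Fndc1*, and with its reads added the log2 fold change of *Cfl1* was -0.24.

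*Cfl2* (chr12:54905594-54909662), the muscle cofilin, measured 35.9, 34.7, 33.1, 33.7 and 35.1 FPKM in si-Control and 49.9, 48.9, 47.1, 51.3 and 50.8 FPKM in si-*Fndc1*. The lowest si-*Fndc1* library was above the highest si-Control library, and the log2 fold change was 0.53 (SE 0.03). *Dstn* (chr2:143757240-143785244), which encodes destrin or actin depolymerizing factor, measured 96.3, 110.6, 101.8, 96.4 and 98.9 FPKM in si-Control and 139.3, 133.5, 133.4, 153.9 and 155.9 FPKM in si-*Fndc1*, again without overlap, with a log2 fold change of 0.51 (SE 0.06). *Cfl2* had no near copy, and that of *Dstn* covered 26.6% of the transcript. The hepatocyte markers summed to 119, 221, 218, 214 and 66.1 FPKM in si-*Fndc1* replicates 1 to 5. The log2 fold changes of *Cfl2* and *Dstn* were 0.21 and 0.25 with the GC and length correction.

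Because *Cfl1* was lower and the other family members higher, the make-up of the family shifted. *Cfl1* held 55.2% ± 1.15 (SD, n = 5) of the summed cofilin family FPKM in si-Control and 42.4% ± 1.16 in si-*Fndc1*, *Dstn* 33.3% ± 0.816 and 42.8% ± 1.05, and *Cfl2* 11.4% ± 0.771 and 14.8% ± 0.603. None of the 3 shares overlapped between the groups. The ratio of *Dstn* to *Cfl1* ran from 0.571 to 0.636 in si-Control libraries and from 0.934 to 1.07 after knockdown, so that both genes were then at about the same level on this scale. The sum of the family overlapped, at 283.7 to 323.0 FPKM in si-Control and 315.6 to 361.5 FPKM in si-*Fndc1*. These shares carry no GC correction. The shares and the ratio of *Dstn* to *Cfl1* rest on the lengths that the authors used. With annotated transcript lengths *Cfl2* held 6.95% and 10.05%. In si-Control, counts scaled by annotated length and library size were 460.0 for *Cfl1* and 112.0 for *Dstn*, against 167.2 and 100.8 FPKM. The similar level of both genes after knockdown is thus given for the authors' lengths only.

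In edgeR's quasi-likelihood fit across all genes, 5 of the 9 members had a Benjamini-Hochberg adjusted p-value under 0.05, 3 higher (*Actg1*, *Cfl2*, *Dstn*) and 2 lower (*Actb*, *Cfl1*) in si-*Fndc1*. Of all tested genes 34.4% were called, 17.3% higher and 17.2% lower. FPKM did not overlap between the groups for 3 members and for 25.1% of all tested genes. *Actc1* was called as well without si-Control replicate 1 or without si-*Fndc1* replicate 5 (both 0.16), and *Actg2* without si-Control replicate 4 (0.16) or with a minimum level of 5 FPKM. Since the members were picked on this contrast, nothing is read from these counts.

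Across genes, the log2 fold change of this experiment fell with the GC content of the transcript (Spearman -0.525 over 11185 tested genes, which are not independent replicates), and the members with the most AT-rich transcripts, *Cfl2* (GC 36.9%) and *Dstn* (45.6%, against a median of 51.1%), were among those that were higher. A within-library correction for both GC content and length, after which 23.6% of the genes were called, brought this correlation to -0.00171. It brought the log2 fold change of *Cfl2* from 0.53 to 0.21 (SE 0.04) and that of *Dstn* from 0.51 to 0.25 (SE 0.04), both still past the threshold. *Actg1* (GC 54.9%) was at 0.51 (SE 0.05) and *Cfl1* (53.6%) at -0.22 (SE 0.05) after it. *Actb* went from -0.20 to -0.11 (SE 0.05) and was no longer past the threshold, and *Acta2* (49.0%) went from 0.05 to -0.10 (SE 0.02) and was past it, on the lower side. The cause of the trend with GC content was not tested.

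**Figure D4:**
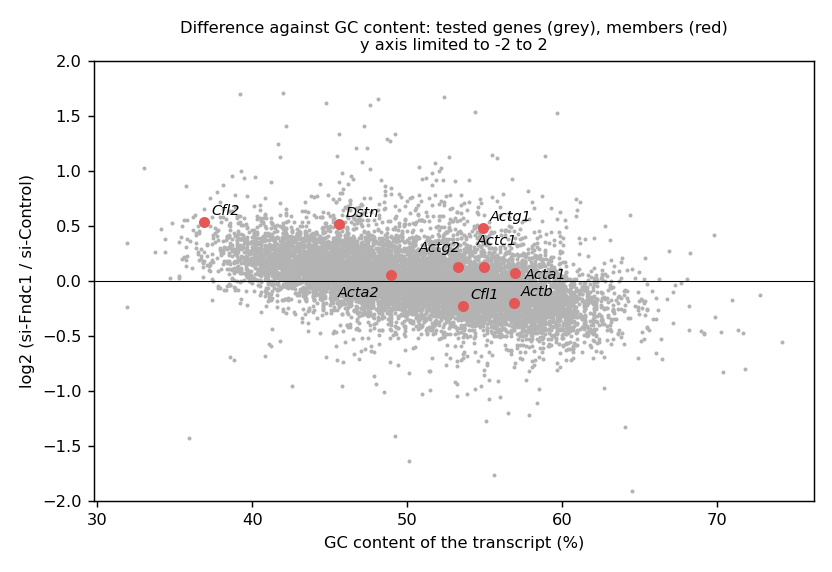
Log2 fold change (si-Fndc1 over si-Control, y axis) against the GC content of the transcript (%, x axis) for 11185 tested genes (grey) and the 9 members (red), with 69 genes beyond the y axis, which ends at a difference of 2 in both directions. Cfl2 (GC 36.9%) lies at the AT-rich end of a cloud that slopes downward, and Actg1 (54.9%) lies nearer its middle at a similar height (0.53 and 0.48).

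**Figure D5:**
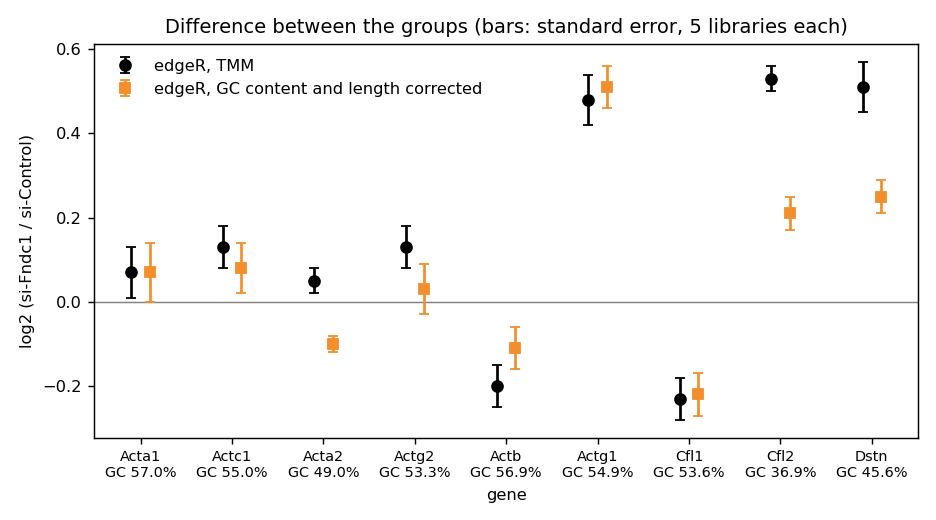
Log2 fold change (y axis, with its standard error, 5 libraries a group) of each member before (black circles) and after (orange squares) GC content and length correction, with the GC content of its transcript. The values of Cfl2 and Dstn are lower after the correction (0.21 and 0.25), that of Actg1 is 0.51, and Acta2 changes sign.

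Within the groups, after subtraction of each group mean from log2 CPM over the 10 libraries, the 2 sarcomeric actins varied together (Pearson r = 0.821, Spearman rho = 0.83, and r = 0.906 without the 2 libraries farthest from the median). *Acta1* varied against *Cfl1* (r = -0.899, rho = -0.976, r = -0.979 without those 2 libraries), and *Actc1* against *Cfl1* (r = -0.859, rho = -0.891, r = -0.69) and *Dstn* (r = -0.808, rho = -0.709, r = -0.822). These 4 are the largest of 36 pairs and are given as a description. The libraries came from the same cell line, and no label says that they were separate cultures or preparations. The least deep library, si-*Fndc1* replicate 5, is lowest in *Acta1* and highest of its group in *Cfl1*.

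Of the 6924 genes that averaged 5 FPKM or more, those most like *Acta1* in this measure were *Adnp* (r = 0.983, rho = 0.903), *Mymk*, the fusion protein myomaker (r = 0.976, rho = 0.939), and *Trim72* (r = 0.964, rho = 0.939), a membrane repair protein of muscle. Among those most like *Actb* were *Gm12960* (r = 0.96) and *Colec12* (r = 0.913), and those most like *Cfl2* were *Gm10232* (r = 0.901), *1810058I24Rik* (r = 0.891) and *Rab21* (r = 0.865). Without the 2 libraries farthest from the median of the member, r was 0.915 to 0.93 for *Acta1*, 0.86 to 0.94 for *Actb* and 0.778 to 0.817 for *Cfl2*. No member was among the genes most like *Acta1*, *Actb* or *Cfl2*, and the other members were not ranked in this way. These correlations are the highest of 6924 genes over 10 libraries. The level that unrelated genes would reach in such a ranking was not computed, so they are given as a description.

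The coding sequences of the actins were 81.9% to 88.7% identical in pairs, most between *Actb* and *Actg1*. The cofilins were more distant, with 71.5% between *Cfl1* and *Cfl2*, 70.1% between *Cfl1* and *Dstn* and 66.9% between *Cfl2* and *Dstn*. Windows of 100 bases in the members' transcripts were compared with the genes that the NCBIM37 annotation lists as coding, which there include *Gm6180*. Of these windows, 1.1% in *Actb* (with *Lrrc58*) and 1.43% in *Cfl1* (with *Gm6180*) occurred identically in another such gene. None did in the other 7 members, so no window of that length was shared between actin isoforms. Other actin genes were near 0: *Actbl2* had no count in any library, *Acte1* at most 8 and *Actb-ps1* at most 12.

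Other genes of actin filament assembly moved in both directions. In 8 lists with 108 genes, 98 were tested, of which 23 were higher (23.5%) and 24 lower (24.5%) in si-*Fndc1*, against 17.3% and 17.2% of all tested genes, with a median log2 fold change of 0.002 against 0.0043. After this correction for GC content and length 18 of the 97 with a known GC content were higher and 18 lower. Of all genes corrected in this way 23.6% were called in either direction. Of the listed genes 21 were called in the same direction both ways.

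Actin is folded by prefoldin and the CCT chaperonin, and of 14 tested subunits 10 were higher and none lower, with a median of 0.24. No enrichment test was made, and 17.3% of all tested genes were higher. *Pfdn5* was at 39.7 ± 2.96 FPKM in si-Control and 54.8 ± 2.18 in si-*Fndc1* (SD, n = 5, log2 fold change 0.47, SE 0.05, edgeR adjusted p = 0.000103), *Pfdn4* at 4.15 ± 0.19 and 5.68 ± 0.464 (0.46, adjusted p = 0.000382), and *Tcp1*, a CCT subunit, at 41.7 ± 0.438 and 48.4 ± 0.729 (0.22, adjusted p = 9.23e-05). Of 8 CCT subunits 5 were called higher and of 6 prefoldin subunits 5. After this correction for GC content and length 6 of the 14 were higher, 5 of CCT (*Cct7* in place of *Cct8*) and 1 of prefoldin, with *Pfdn5* at 0.34 and *Pfdn4* at 0.18 (adjusted p = 0.0674).

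Proteins that bind actin monomers or help cofilin had 4 of 13 tested genes higher and 2 lower, with a median of 0.013. *Tmsb10*, a β-thymosin that sequesters monomers, was at 2500 ± 202 FPKM in si-Control and 3240 ± 142 in si-*Fndc1* (log2 fold change 0.38, edgeR adjusted p = 0.000494), a level above that of *Acta1*, and remained at 0.37 after the correction. Profilin-2 (*Pfn2*) was at 1.76 ± 0.228 and 2.39 ± 0.201 FPKM (0.44, adjusted p = 0.00549), whereas coronin-1C (*Coro1c*) was at 13.8 ± 0.655 and 11.5 ± 0.462 FPKM (-0.26, adjusted p = 0.000564). The calls of *Pfn2* and *Coro1c* were lost after the correction (0.25, adjusted p = 0.0845, and -0.04, adjusted p = 0.557). Of the 13 tested genes 3, *Tmsb10* among them, were called higher after the correction and none lower.

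The list of kinases and phosphatases of cofilin also holds ROCK and PAK kinases, which act on LIM kinases. It had 1 of 12 tested genes higher, a PAK kinase, and 5 lower, with a median of -0.085. After the correction it had none higher and 2 lower of 11 with a known GC content. The 5 lower without the correction were the 3 kinases described next and 2 phosphatases, whose action on cofilin is opposite. The phosphatases were *Ssh1* (slingshot, log2 fold change -0.42, edgeR adjusted p = 0.00284) and *Pdxp* (chronophin, -0.30, adjusted p = 0.00936), both named after their values were seen. LIM kinase 1 (*Limk1*) was at 3.8 ± 0.0518 FPKM in si-Control and 2.93 ± 0.145 in si-*Fndc1* (log2 fold change -0.37, edgeR adjusted p = 0.000208), and the testicular protein kinase *Tesk1*, which phosphorylates the same residue of cofilin, at 17.1 ± 1.15 and 12.7 ± 0.886 (-0.41, adjusted p = 0.000457). *Pak4*, which phosphorylates LIM kinase 1, was at 8.75 ± 0.432 and 7.12 ± 0.284 (-0.29, adjusted p = 0.00113). These are GC-rich transcripts (57.4%, 62.9% and 59.8%). After the correction *Limk1* was at -0.14 (adjusted p = 0.0281), *Tesk1* at -0.11 (adjusted p = 0.132) and *Pak4* at -0.08 (adjusted p = 0.253). The phosphatase *Ssh1* was at -0.23 (adjusted p = 0.0298), and *Pdxp* had no known GC content. The 2 genes called lower were thus 1 kinase, *Limk1*, and 1 phosphatase, *Ssh1*.

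Of the Arp2/3 complex, which nucleates branched filaments, 3 of 9 tested subunits were higher and none lower. *Arpc4* was at 28.1 ± 1.04 FPKM in si-Control and 36.4 ± 1.63 in si-*Fndc1* (log2 fold change 0.38, edgeR adjusted p = 5.6e-05), *Arpc3* at 26.5 ± 2.02 and 34.6 ± 3.88 (0.40, adjusted p = 0.00275) and *Arpc5l* at 8.48 ± 0.634 and 10.0 ± 0.305 (0.25, adjusted p = 0.00496). All 3 were called after the correction as well (0.34, 0.30 and 0.21), when 4 other subunits were called lower. Formins and other nucleators had 1 of 18 tested genes higher and 8 lower (2 and 5 after the correction), among them *Fmnl3* at 48.5 ± 1.4 and 41.1 ± 1.27 FPKM (-0.23, adjusted p = 0.000225), *Fhod3*, a formin of the sarcomere, at 8.2 ± 0.374 and 6.67 ± 0.219 (-0.29, adjusted p = 0.00029) and *Inf2* at 36.4 ± 1.43 and 31.3 ± 1.12 (-0.21, adjusted p = 0.0014). After the correction *Inf2* was at 0.04 (adjusted p = 0.321).

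Capping and severing proteins had 2 of 10 tested genes higher and 3 lower. The 2 genes for subunits of capping protein named by the rule differed in sign, with *Capza2* at 40.0 ± 0.706 FPKM in si-Control and 47.9 ± 1.49 in si-*Fndc1* (log2 fold change 0.27, edgeR adjusted p = 6.69e-05) and *Capzb* at 84.2 ± 3.56 and 70.6 ± 4.89 (-0.25, adjusted p = 0.00337). *Tmod3*, a tropomodulin that caps pointed ends, was at 5.75 ± 0.367 and 6.71 ± 0.501 (0.23, adjusted p = 0.00971). After the correction *Capzb* was at -0.24 (adjusted p = 0.00418), and *Capza2* (0.05, adjusted p = 0.187) and *Tmod3* (0.13, adjusted p = 0.138) were not called.

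SRF itself was lower. *Srf* was at 17.6 ± 1.56 FPKM in si-Control and 12.5 ± 0.928 in si-*Fndc1* (log2 fold change -0.48, SE 0.07, edgeR adjusted p = 0.000524), and the ternary complex factor *Elk4* at 11.5 ± 0.515 and 8.37 ± 0.818 (-0.45, adjusted p = 0.000384). *Fhl2*, a LIM domain cofactor, was at 13.3 ± 0.345 and 17.3 ± 0.964 (0.38, adjusted p = 0.000184). Of 8 tested genes for SRF and its cofactors 5 were lower and 1 higher, with a median of -0.19, and after the correction 4 were lower and 1 higher, with *Srf* at -0.30 (adjusted p = 0.00769). The list of other SRF target genes had 1 of 14 tested genes higher and 1 lower, *Cnn1* at 2.14 ± 0.151 and 2.54 ± 0.243 FPKM (0.26, adjusted p = 0.0415) and *Flna* at 183 ± 4.29 and 144 ± 5.09 FPKM (-0.33, adjusted p = 3.34e-05), with a median of 0.012. After the correction *Cnn1* was at 0.21 (adjusted p = 0.121) and *Flna* at -0.18 (adjusted p = 0.000976). Of the 14 target genes 1 other than *Cnn1* was then called higher, and 2 were called lower, *Flna* among them. The 3 members with a CArG box of the strict form in the promoter were at 0.07 (*Acta1*), 0.13 (*Actc1*) and 0.48 (*Actg1*).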

How the data were processed

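mRNA of C2C12 cells was sequenced in 10 libraries, 5 of each group, and groups and replicate numbers were taken from the sample labels. The authors deposited, in one table of 55359 genes, raw read counts per gene and, beside each count, FPKM values (normalized by transcript length and library size). The paper's methods name TopHat, htseq-count and mm10, the series text STAR and mm9, and the submitters' processing notes list cutadapt 1.9, FastQC and GRCm39. Whether counting used the strand, and how reads matching several places were handled, is not given in the sources used here. Every column of values was matched to a sample (0 were left over). The methods name fewer libraries than the 10 used here.

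Genes averaging 0.5 FPKM or more entered edgeR 4.0.16 (TMM, quasi-likelihood test) in R 4.3.3, without a replicate term, with Benjamini-Hochberg adjustment over all 13548 tested genes. Total counts were 56332844 to 75995168 per library. Alternatives were DESeq2 1.42.0, other size factors, other minimum levels, limma 3.58.1 on log2(FPKM + 1) and log2(FPKM + 0.1), each library left out, the replicate number as a block, and an offset for GC content and implied length (Huber regression on splines of 5 degrees of freedom, 0.5 added to counts). Fits without TMM, with only the genes of known GC content, and with near copies added to *Actg1* and *Cfl1*, and shares with annotated lengths, were chosen after seeing the data. GC content, coding sequences and copies came from NCBIM37 with its annotation, matched by gene identifier, and promoters from RefSeq, matched by symbol. Python 3.11.15 (pandas 2.3.3, scipy 1.17.1, numpy 2.4.6, matplotlib 3.10.9) was used for tables and figures.

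The members and the gene lists were chosen with earlier results of these data known. Named are all members, the tested genes with the 3 smallest p-values among those called in each list, the 3 genes most like *Cfl2*, *Acta1* and *Actb*, and copies of members, and 1 gene under this rule is not reported here. Markers named one by one were chosen after their values were seen.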

Additional observations from a re-analysis of the deposited data

Results flagged for a closer look

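In 64 groups of 5 values examined, 2 had a single library far from the others, and chance flags about 1 in 20 such groups. The summed actin level of si-Control replicate 1 was 4223 FPKM, against 4021 to 4057 FPKM in the other 4 si-Control libraries. The level of the *Actg1* copy *Gm12715* in si-*Fndc1* replicate 3 was 18.28 FPKM, against 222.7 to 246.9 FPKM in the other 4 si-*Fndc1* libraries.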

How the results depend on the processing

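The members were picked on the contrast tested, so which of them were called under an alternative is given as a value only: *Actg1*, *Cfl2*, *Dstn* and *Cfl1* in each alternative run. *Actb* was not called in the fits with the correction for GC content and length, where *Acta2* was. Called genes were 4663 of 13548 tested genes, 4244 of the 11185 with a known GC content, 2642 of those with the correction, 2641 with near copies added as well, and 1749 with the correction and the replicate block. Other actin pathway genes called were then 12 higher and 11 lower under the replicate block with the correction, against 23 and 24. With the replicate block alone, 3572 genes, 17 higher and 17 lower pathway genes, and the same 5 members were called. The replicate numbers showed little pairing of the libraries (correlations of deviations 0.014 to 0.14, and 1 of 5 best with its own number). Such values cannot show that the libraries were unpaired. With near copies added the *Actg1* log2 fold change was 0.35, and 0.39 with the correction. Leaving out 1 library at a time gave 0.44 to 0.52 for *Actg1*, 0.52 to 0.55 for *Cfl2*, 0.49 to 0.55 for *Dstn*, -0.24 to -0.17 for *Actb* and -0.26 to -0.21 for *Cfl1*. Calls of members rest on at least 3412 reads in each library, so the spread over 5 libraries, not depth, limits them.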
